A study of Mus musculus with 4 samples.

Results

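The genes described here are 41 cell cycle genes, 27 of them markers of G2 and mitosis (G2/M) and 14 of DNA synthesis (S), found by symbol among the 32285 genes in the tables. The rule uses no measured value, but the genes were chosen with earlier results of these data known. All 41 were present in the tables, and all 41 passed the minimum of 20 UMIs (unique molecular identifiers, 1 per captured RNA molecule) over the 4 libraries in beta-like cells. A dividing cell first copies its DNA in S phase, for which it makes helicase, clamp and nucleotide enzymes, and then, in G2 and mitosis, makes cyclins, kinases, kinetochore and spindle proteins. Most RNAs of the second group are made only around division and are lost again on leaving mitosis, whereas several of the S genes are also transcribed in resting cells. Adult beta cells, the insulin-secreting cells of the pancreatic islet, divide rarely, and a rise in their division is one known way in which islets adapt to a higher insulin demand.

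The libraries are droplet 3′ single-cell RNA sequencing of islets from male mice of the C57BL6/N background, either Pax4 WT or Pax4 HH, which carry on both alleles an arginine-to-histidine knock-in of Pax4, a transcription factor of beta cell development, in every cell. WT SCD and HH SCD came from mice of 12 weeks on a standard chow diet, and WT HFD and HH HFD from mice of 16 weeks given a high-fat diet for 4 weeks. Each library pooled the islets of 2 to 3 mice and each group is 1 library, so no difference has a replicate check, diet and age cannot be told apart, and genotype cannot be told apart from library. Intervals are 95% intervals and cover counting error only, exact for shares (Clopper-Pearson) and for ratios (conditional binomial). For differences of shares they are approximate, with the Clopper-Pearson limits of both shares combined as a root of summed squares. Ratio intervals treat every UMI as independent, so they leave out the spread between cells. Where 4 values stand in a row without names, they follow the order WT SCD, HH SCD, WT HFD, HH HFD.

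The 4 libraries held 5123 (WT SCD), 4665 (HH SCD), 5307 (WT HFD) and 7123 (HH HFD) barcodes, with 68011082 to 104810105 UMIs. The standard filter used here (3000 to 50000 UMIs, 2000 to 5000 genes and under 10% mitochondrial UMIs, all required) and the removal of predicted doublets left 3092, 3082, 1999 and 4231 cells. Only 38.3% of the WT HFD barcodes passed the filter, against 61.6% to 67.8% in the other libraries. Classes were rebuilt from counts, without cell cycle genes, because no cell annotation was used. Beta-like cells numbered 2020, 1979, 1135 and 2840, and all 9 beta markers were detected in the G2/M cells of each library. Different clusters held the beta-like cells of the groups: clusters 1 and 4 were mostly SCD, cluster 2 mostly HFD, and cluster 5 nearly all HH HFD. There were 50 barcodes in more than 1 library, and none of the G2/M beta-like cells carried one of them.

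G2/M beta-like cells were found in every library, and their share was higher in HH HFD than in the other libraries. Each cell was thinned to 3000 UMIs and called G2/M when it then held UMIs of 2 or more different G2/M members, or S when it did not but held 2 or more different S members. In SCD, 7 of 2020 WT cells (0.347%, 0.139 to 0.713%) and 13 of 1979 HH cells (0.657%, 0.350 to 1.12%) were in G2/M. In HFD, 6 of 1135 WT cells (0.529%, 0.194 to 1.15%) and 46 of 2840 HH cells (1.62%, 1.19 to 2.15%) were. The HH share was thus 1.09 points above the WT share in HFD (0.34 to 1.72), an interval above 0, while in SCD the difference was 0.31 points (-0.17 to 0.82), an interval that includes 0. The SCD result turned on the thinning: with another random draw the counts were 7 and 20 cells and the difference 0.66 points (0.13 to 1.25). Without thinning, and with 5 members required, 7 of 2020, 19 of 1979, 10 of 1135 and 62 of 2840 cells were in G2/M, a difference of 0.61 points in SCD (0.09 to 1.19) and 1.30 points in HFD (0.41 to 2.06). Between the diets, the share was 0.96 points higher in HFD than in SCD in HH (0.33 to 1.58) and 0.18 points higher in WT (-0.31 to 0.83). Whether the difference between genotypes itself differed between diets was not tested.

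Most G2/M cells carried many of the members at once. After thinning, 1968, 1915, 1101 and 2713 beta-like cells held no G2/M member, and 45, 51, 28 and 81 held 1, just below the threshold. Just above it, 1, 0, 2 and 9 cells held 2 members, and 0, 1, 1 and 1 held 3. At least 4 were held by 6, 12, 3 and 36 cells, with up to 24 different members in an HH HFD cell. At full depth the G2/M cells held a median of 24, 23, 14.5 and 19 different G2/M members and 154, 104, 32.5 and 75.5 G2/M UMIs. Of the beta-like cells called neither G2/M nor S, 82.4% to 84.8% had no G2/M UMI at all. G2/M cells had medians of 30247, 25565, 25479 and 26324 UMIs, beside 26384, 26182, 29785 and 24196 for all beta-like cells, so neither set was deeper in all libraries. They had more genes than the cells called neither in each library, with medians of 4672, 4248, 4607 and 4170 against 3888, 3710, 4073 and 3411.

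**Figure D1:**
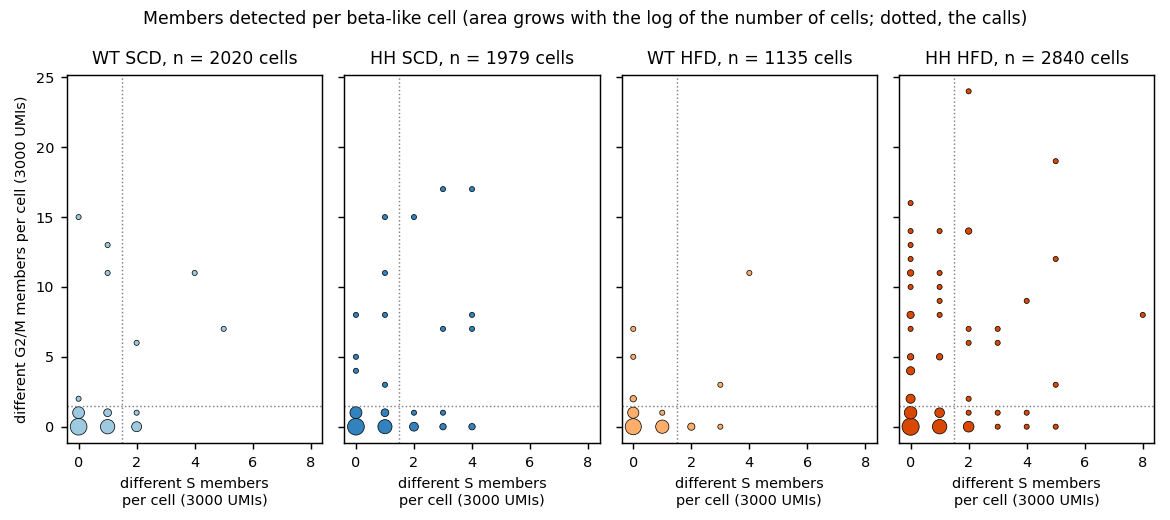
Different G2/M members (y axis) and S members (x axis) per thinned beta-like cell, 1 panel per library, where the area of a point grows with the log of the number of cells and dotted lines mark the calls. Nearly all cells sit at 0 or 1 G2/M members, and the cells with 4 or more number 6, 12, 3 and 36 from left to right.

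Most of the 72 G2/M beta-like cells were insulin cells by their hormone RNA. Insulin (Ins1 and Ins2) was the leading hormone in 65 of them (7, 10, 5 and 43 by library). Glucagon (Gcg) led in 2 cells of HH SCD, pancreatic polypeptide and peptide YY (Ppy and Pyy) in 4 and somatostatin (Sst) in 1, although these cells clustered with the beta-like cells. Cluster 17, of 102 cells with a median of 27350 UMIs, held 6, 13, 6 and 44 of the G2/M cells. It was counted as beta-like because it expressed all 9 beta markers and no other type's markers were among its leading genes, which were themselves cell cycle genes such as Pbk and Cenpf although these were left out of the clustering. The other beta-like clusters, cluster 5 among them, held 0 to 2 G2/M cells each. Counting insulin-led cells of any cluster instead, a definition chosen after the data were seen, gave 7 of 2042 (0.343%), 11 of 1996 (0.551%), 5 of 1142 (0.438%) and 47 of 2898 (1.62%).

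Markers of other cells and signs of doublets were measured in the same cells. None of the 5 T cell markers was detected in a G2/M beta-like cell, and B cell markers had a UMI in 0, 0, 1 and 8 of them. In HH HFD this was 17.4% of the G2/M cells, beside 10.9% of the beta-like cells that were neither G2/M nor S. Endothelial markers had a UMI in 10.9% of the HH HFD G2/M cells and 20.7% of the others, with 94.7% of these UMIs of the G2/M cells in 1 cell. Median doublet scores were 0.0155, 0.0343, 0.0139 and 0.0511 in the G2/M cells, beside 0.0308, 0.0307, 0.0206 and 0.0452 in the others. The part of doublets in the counts was not tested.

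The size of the difference depended on the cell filter, since its upper limits on UMIs and genes also left out barcodes with G2/M members. Without the upper limits, 18 of 2135 WT SCD (0.843%), 20 of 2059 HH SCD (0.971%), 17 of 1315 WT HFD (1.29%) and 73 of 2940 HH HFD cells (2.48%) were in G2/M. The WT HFD count thereby went from 6 to 17 cells and its share came above that of both SCD libraries, while HH HFD kept the highest share. The summed level of the 27 G2/M members went from 26.5, 35.1, 19.3 and 84.0 to 77.6, 63.6, 105 and 157 counts per 1000000 UMIs of beta-like cells (CPM). The HH/WT log2 ratio of these sums went from 2.12 to 0.58 in HFD and from 0.40 to -0.29 in SCD, so the SCD direction turned and the HFD ratio shrank. With a looser filter (no upper limit, 1000 genes or more, under 20% mitochondrial UMIs) the sums were 73.0, 52.4, 89.3 and 149 CPM and the shares 0.784%, 0.732%, 1.14% and 2.32%. Values below are those of the standard filter unless stated, and the levels of single members carry this limit.

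**Figure D2:**
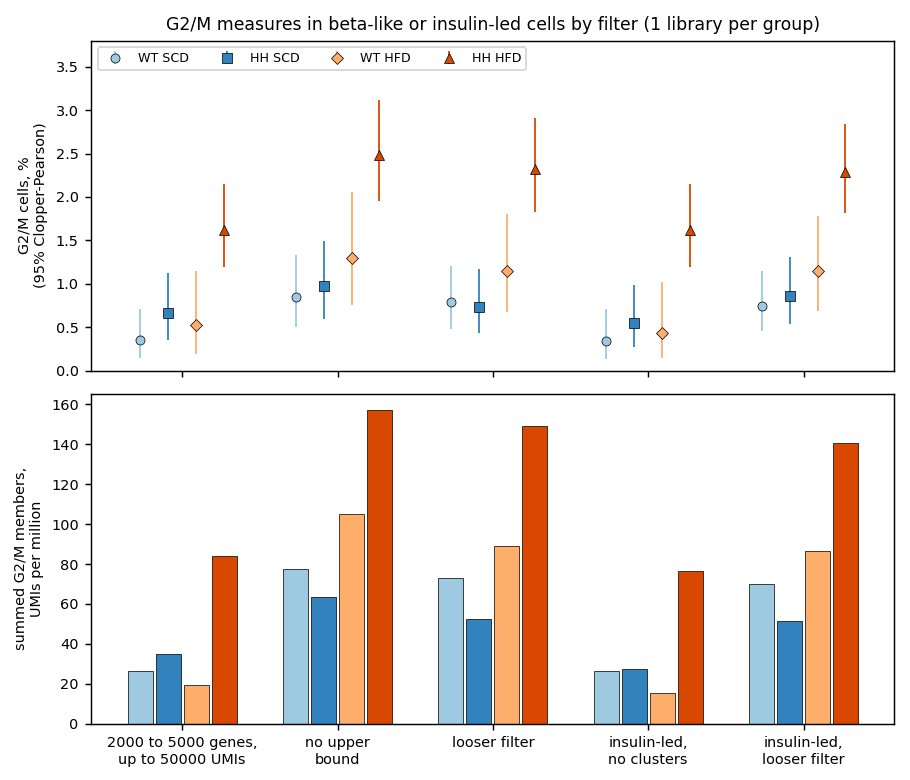
Share of cells in G2/M (upper panel, percent, with 95% Clopper-Pearson intervals) and summed level of the G2/M members (lower panel, CPM) in the 4 libraries, for beta-like cells under 3 cell filters and for insulin-led cells under 2. HH HFD is the highest library throughout, with 1.62%, 2.48% and 2.32% of beta-like cells, while WT HFD goes from 0.529% to 1.29% when the upper limits are left out.

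In HFD, 26 of the 27 G2/M members were higher in HH than in WT beta-like cells by 2-fold or more, and Kif23 was the exception. With the 5 S members past 2-fold this made 31 of 41 members, beside 4.40% of the 14734 genes with 20 or more UMIs. No member was lower by 2-fold, beside 2.33% of those genes. The G2/M members are not separate observations, since cells called G2/M or S held 60.8% of their UMIs in WT HFD and 87.4% in HH HFD. The median log2 ratio was 1.74 over the 41 members and 1.96 over the G2/M members, against -0.13 over all genes. Without the upper limits, 27 of 27 G2/M members were still above 0 but only Ccnb1 and Bub1b of them, and Cdc6 of the S members, were past 2-fold (2.5% of all genes were, in that direction).

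Mki67, the nuclear protein that coats mitotic chromosomes, had 126, 149, 62 and 497 UMIs, or 2.31, 2.83, 1.83 and 7.04 CPM. HH HFD was the highest library and WT HFD the lowest, a log2 ratio of 1.95 (1.56 to 2.35), which without the upper limits was 0.41 (0.24 to 0.58). Top2a, which untangles DNA before chromosomes separate, had 156, 155, 35 and 380 UMIs and a ratio of 2.38 (1.88 to 2.93), or 0.23 without those limits. Both are usual markers of division, yet of 7974 beta-like cells 216 had a UMI of Mki67, 138 of Top2a and 66 of both at full depth.

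The mitotic kinase Cdk1 and its partners were also highest in HH HFD. Cdk1 had 86, 103, 27 and 319 UMIs, a HFD log2 ratio of 2.50 (1.94 to 3.13), or 0.95 without the upper limits. Its cyclins Ccna2 (1.67), Ccnb1 (3.32) and Ccnb2 (1.65) and the Cdk-binding subunit Cks2 (1.90) were all higher in HH HFD than in WT HFD. Without the upper limits these were 0.76, 1.07, 0.17 (-0.15 to 0.49, an interval that includes 0) and 0.77. Ccnb1, which brings the kinase into mitosis, had only 6 UMIs in WT HFD against 125 in HH HFD, so its interval was wide (2.16 to 4.80).

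Genes of the anaphase-promoting complex, the ubiquitin ligase that ends mitosis, gave one of the largest differences. Ube2c, its ubiquitin-conjugating enzyme, had 98, 128, 29 and 669 UMIs, or 1.80, 2.43, 0.855 and 9.47 CPM, and a HFD ratio of 3.47 (2.93 to 4.06), or 0.94 without the upper limits. Its activator Cdc20 had 22, 59, 22 and 219 UMIs, higher in HH than in WT on both diets. The checkpoint kinases that restrain it, Bub1 and Bub1b, had few UMIs in every library, from 3 to 56, and HFD ratios of 2.49 and 1.58. Without the upper limits these ratios were 0.19 (-0.41 to 0.80) and 1.12 (0.48 to 1.82).

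Of the centromere and kinetochore genes, Cenpf and Cenpa were among the G2/M members with most UMIs in HH HFD, while Cenpe had 190. Cenpf, a kinetochore protein, had 120, 113, 63 and 615 UMIs and a HFD ratio of 2.23 (1.85 to 2.63), or 0.52 without the upper limits, and Cenpe, a kinetochore motor, had a ratio of 1.87. Cenpa, the histone that marks centromeres, had 41, 82, 66 and 334 UMIs and was, like 6 other G2/M members, above WT SCD in WT HFD, with an HH/WT ratio of 1.05 in SCD and 1.28 in HFD.

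Other mitotic kinases and the chromosomal passenger complex, which corrects chromosome attachment, were higher in HH HFD as well. Log2 ratios in HFD were 2.53 for Birc5, 1.71 for Cdca8 and 3.64 (1.04 to 9.0) for Aurkb, of which WT HFD held 1 UMI. They were 1.22 for Aurka, 2.47 for its activator Tpx2, 2.73 for Plk1 and 3.11 for Pbk. Without the upper limits the values were 0.69 for Birc5, 0.84 for Cdca8, 0.70 (-0.03 to 1.49) for Aurkb and 0.53 for Aurka. For Tpx2, Plk1 and Pbk they were then 0.77, 0.81 and 0.32. Pbk, a kinase active in mitosis, had 88, 132, 12 and 215 UMIs, so that WT HFD lay far below the other libraries.

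Among spindle genes, Nusap1, a microtubule-binding protein, had 26, 33, 1 and 105 UMIs, and its HFD ratio of 5.66 (3.15 to 10.97) rested on 1 UMI in WT HFD. The motor Kif11 (1.63), the bundling protein Prc1 (1.74), Hmmr (1.70) and the mitotic entry gene Cdca3 (1.96) were past 2-fold. Without the upper limits these were 0.35 (-0.02 to 0.74), 0.34, 0.47 and 0.48, and Nusap1 was at 0.34 (-0.02 to 0.71). Kif23, a motor of the central spindle, had 23, 34, 21 and 71 UMIs and a ratio of 0.70 (-0.02 to 1.48), an interval that includes 0. It was the member with the smallest HFD difference of the G2/M group.

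**Figure D3:**
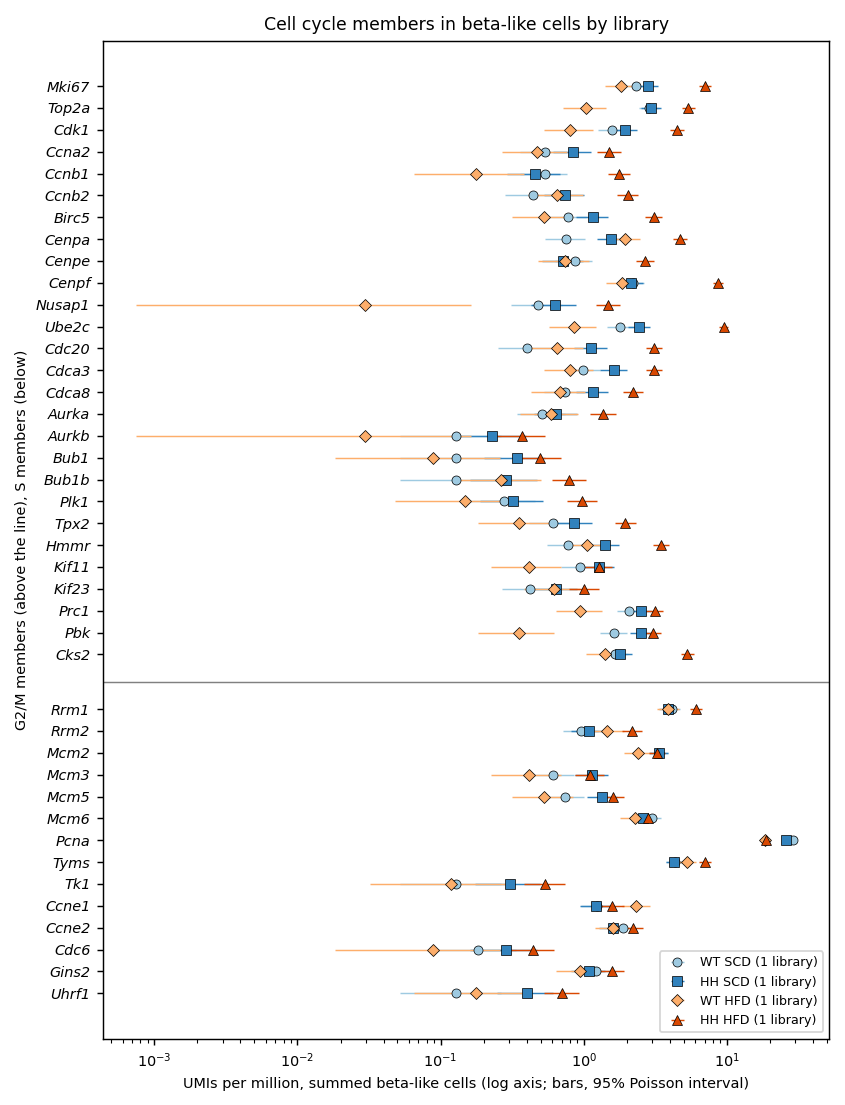
Level of each member in beta-like cells (log axis, CPM) in the 4 libraries, G2/M members and S members apart. HH HFD is the highest library for the G2/M members, for example 7.04 CPM for Mki67 against 1.83 in WT HFD, while Pcna stands at 18.6 CPM in both HFD libraries.

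In SCD the members differed less between genotypes, and 6 of 41 were higher in HH by 2-fold or more (1.48% of 14686 genes) and 0 were lower (1.97% of genes). These were Cdc20 (1.47), Bub1 (1.41), Bub1b (1.15) and Cenpa (1.05) of the G2/M members and Uhrf1 (1.63) and Tk1 (1.24) of the S members, 4 of which had 7 UMIs in WT SCD. The median log2 ratio was 0.49 over the G2/M members and -0.01 over the S members, against -0.09 over all genes. Mki67 had a ratio of 0.29 (-0.06 to 0.64; -0.29 without the upper limits), Top2a of 0.04 and Cenpf of -0.04, intervals that include 0. Without the upper limits no member was past 2-fold and the median over the 41 was -0.12, with 6 of 27 G2/M members above 0, so the sign of the SCD median turned with the filter.

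**Figure D4:**
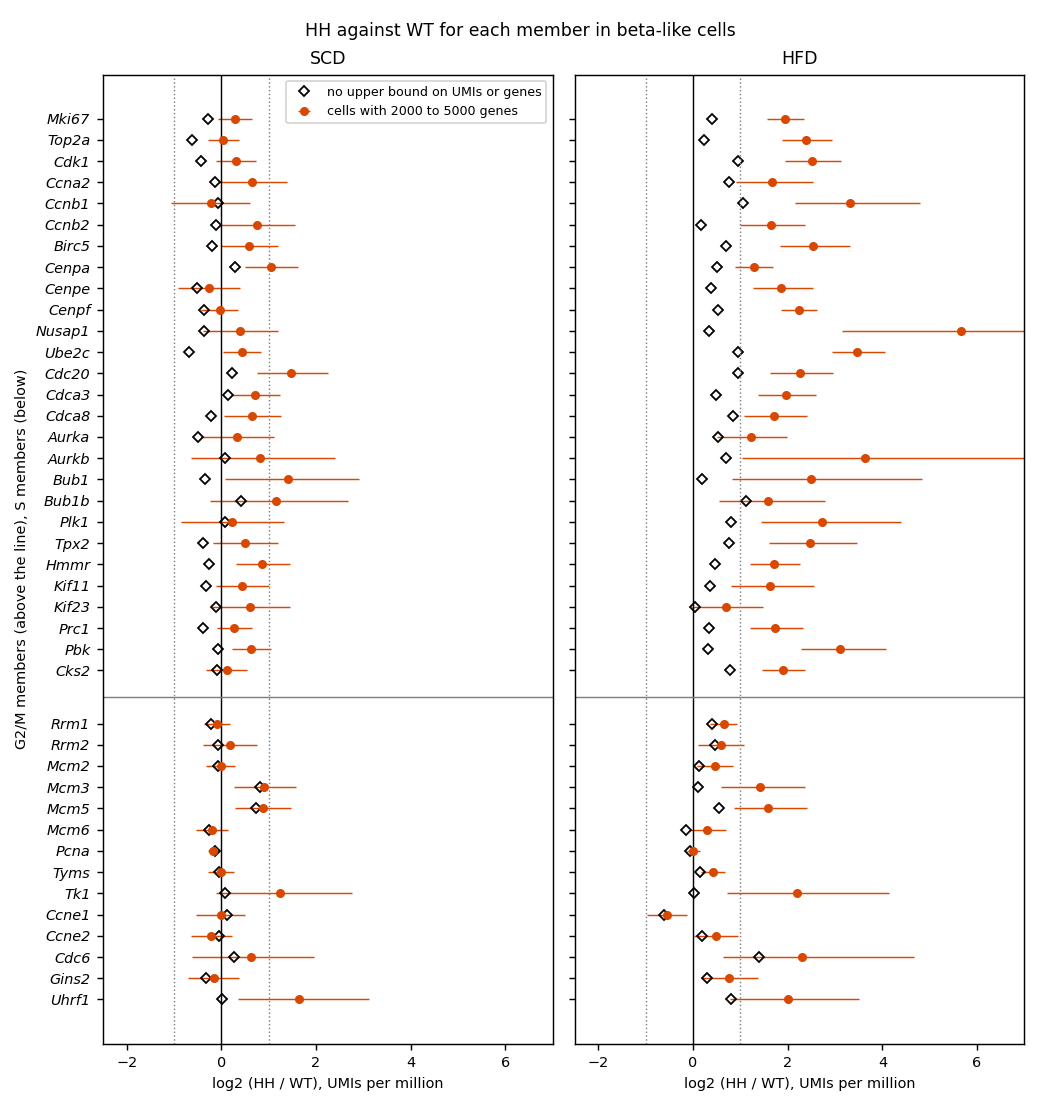
Log2 HH/WT ratio of each member in beta-like cells, in SCD and in HFD, with filled points and 95% counting intervals (cut off at the axis for Nusap1 and Aurkb) for the standard filter, open diamonds for cells without the upper limits, and dotted lines at 2-fold. With the standard filter, in HFD 40 of 41 members lie above 0, up to 5.66 for Nusap1, and Ccne1 lies at -0.55, whereas in SCD the members lie between -0.26 and 1.63.

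Between the diets the genotypes gave different values for the same members. In WT, 2 of 41 members were higher in HFD by 2-fold (2.97% of 14681 genes), Cenpa (1.37) and Bub1b (1.05), and 9 were lower (4.67% of genes). The lower members were Nusap1, Pbk, Aurkb, Ccnb1, Top2a, Kif11, Prc1, Ube2c and Cdc6, with log2 ratios from -4.02 to -1.05. This direction went with the filter, as the G2/M sum of WT was 19.3 CPM in HFD and 26.5 in SCD with the standard filter but 105 and 77.6 without the upper limits, and 89.3 and 73.0 with the looser filter. In HH, 18 of 41 were higher in HFD (5.27% of 14779 genes), 17 of them G2/M members led by Cenpf at 2.02 (1.73 to 2.32), and 0 were lower (4.92% of genes). Each HFD library serves in 1 of the HH/WT ratios as well, so these values and those above share their cells. A difference in diet is here also a difference in age.

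The S members gave a flatter picture. Their summed level was 50.9, 48.4, 40.0 and 49.8 CPM. The HH/WT log2 ratio was -0.07 (-0.15 to 0.00) in SCD and 0.31 (0.22 to 0.41) in HFD, or 1.24-fold, beside 4.35-fold for the G2/M sum. Without the upper limits the HFD ratio was 0.09.

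Pcna, the sliding clamp of DNA polymerase, carried much of that sum: 29.1, 25.9, 18.6 and 18.6 CPM, from 1585, 1363, 631 and 1314 UMIs. Its HFD ratio was 0.00 (-0.14 to 0.14), and it was lower in HFD than in SCD in both WT (-0.65) and HH (-0.48). It had a UMI in 38.9% of the beta-like cells that were not in G2/M, so a Pcna UMI by itself does not mark a dividing beta cell here. With Pcna left out, the HH/WT ratio of the S sum was 0.05 in SCD and 0.54 in HFD.

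Replication licensing genes differed from each other with the standard filter. The helicase subunits Mcm5 (1.59) and Mcm3 (1.42) and their loader Cdc6 (2.31, from 3 UMIs in WT HFD and 31 in HH HFD) were past 2-fold in HFD. Mcm2 (0.45), Mcm6 (0.30, -0.08 to 0.70) and the helicase partner Gins2 (0.75) were not. Without the upper limits the ratios were 1.40 (0.40 to 2.55) for Cdc6, 0.55 for Mcm5, 0.10 for Mcm3, 0.13 for Mcm2, 0.29 for Gins2 and -0.15 (-0.45 to 0.16) for Mcm6. Mcm5 had 40, 71, 18 and 113 UMIs, while Mcm6 had 162, 136, 77 and 198.

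Of the nucleotide enzymes, thymidine kinase Tk1 had 7, 16, 4 and 38 UMIs and a HFD ratio of 2.19 (0.72 to 4.14), which was 0.01 (-0.57 to 0.61) without the upper limits. The ribonucleotide reductase subunits Rrm1 (0.65) and Rrm2 (0.59) and thymidylate synthase Tyms (0.42) were above 0 but under 2-fold. Uhrf1, which maintains DNA methylation at replication forks, had 7, 21, 6 and 50 UMIs and a ratio of 2.0 (0.78 to 3.51). The cyclins of S phase entry differed from each other: Ccne2 had a ratio of 0.48, and Ccne1 was the one member below 0 in HFD at -0.55 (-0.98 to -0.12), with 67, 64, 79 and 112 UMIs.

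The balance of S against G2/M differed most in HH HFD. The log2 ratio of S over G2/M UMIs in beta-like cells was 0.94, 0.46, 1.05 and -0.76, so that HH HFD was the one library with more G2/M than S UMIs. Without the upper limits, the G2/M sum was above the S sum (55.7, 52.3, 52.8 and 56.3 CPM) in all 4 libraries. The G2/M sum came mainly from few cells: cells called G2/M or S held 73.5%, 78.9%, 60.8% and 87.4% of the G2/M UMIs but 9.23%, 15.9%, 8.69% and 28.2% of the S UMIs. A single cell held 22.6%, 13.0%, 21.5% and 6.66% of the G2/M UMIs of its library. Without that cell of each library the HH/WT ratio of the G2/M sum was 0.57 in SCD and 2.37 in HFD.

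Cells called S alone numbered 14, 13, 4 and 26, and those with 2 or more members of both phases 3, 6, 2 and 13. The S calls are not read as S phase, since a UMI of exactly 1 S member was found in 246, 209, 108 and 272 thinned cells. With both calls together the share was 1.04%, 1.31%, 0.881% and 2.54%, a difference of 0.27 points in SCD (-0.44 to 1.0) and 1.65 points in HFD (0.74 to 2.45).

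The G2/M members had most of their UMIs in the G2/M cells, for 26 of 27 over 50%, while the S members had many UMIs in the rest. Here each G2/M member was compared between cells called from the other 26 members and the remaining beta-like cells, over the 4 libraries. The G2/M members had 44.7% to 94.0% of their UMIs in the G2/M cells, with a median of 84.9%, and levels 85.1 to 1708 times higher (median 610). The lowest share was that of Aurka. The S members had 6.05% to 73.8% of their UMIs there (median 13.4%) and were 6.78 to 297 times higher (median 16.3). Tk1 was the highest of them, ahead of Uhrf1 (68.1 times) and Cdc6 (67.3 times), and Pcna the lowest. Summed G2/M levels within the G2/M cells were 4974, 4275, 2385 and 3942 CPM, against 7.12, 7.51, 7.64 and 10.9 CPM in cells called neither. A gap in these sums follows from the call itself, which used the same members.

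The 15 other genes with the highest ratio in cycling (G2/M or S) over the remaining beta-like cells, of 5399 with enough UMIs, included several mitotic genes. Pimreg (log2 10.64), Esco2 (9.16), which acts in sister chromatid cohesion, and the chromokinesin Kif4 (8.87) led, and the kinetochore genes Knl1 (8.75) and Nuf2 (8.31) were among them, and Stmn1 (7.63) was the last. Of the 15, 10 belonged to a list of 58 other G2/M genes. In the HH/WT comparison this list had a median of 0.22 in SCD and 1.01 in HFD, where 29 of 58 were higher by 2-fold and 0 lower (all genes 4.40% and 2.33%). A list of 53 other S genes had medians of 0.06 and 0.49, with 18 of 52 measured genes higher by 2-fold in HFD, beside the same 4.40%. The most abundant genes of both lists moved little between genotypes although they too were higher in G2/M cells: the histone H2afz had an HH/WT ratio of 0.03 for SCD, of 0.17 for HFD, and a log2 ratio of 3.16 in G2/M over cells called neither. For Hmgb2 these were 0.05, -0.09 and 3.07, and for Dut 0.06, 0.03 and 2.40. The others (Tubb4b, Spc25, Hmgn2, Rfc2, Orc6, Casp8ap2 and Slbp) had HH/WT ratios between -0.34 and 0.12.

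The G2/M members share promoter motifs that the choice of members did not use. RefSeq promoter windows of 300 bases (250 before the start, GRCm38.p6) were found for 35 of the 41 members. Windows were searched on both strands for the cell cycle homology region (CHR, TTTGAA or TTCGAA), the CCAAT box (CCAAT) and E2F sites (TTTCCCGC, TTTGGCGC, TTTCGCGC or TTTGCCGC). A gene was counted once, with a match in any of its windows. CHR letters were found for 18 of 23 G2/M members (78.3%), 1 of 12 S members (8.33%) and 21.7% of all 27025 genes (19.2% of all 32851 windows), and a CCAAT box for 21 of 23, 8 of 12 and 41.1% (37.4% of windows). E2F letters were found for 1 of 23 G2/M members, 5 of 12 S members (41.7%) and 2.61% of all genes (2.27% of windows). A match is only a match of letters, and 1 pair of matches to different motifs overlapped.

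The 200 bases before the start of 5 members show the contrast, 3 of G2/M with CHR and CCAAT letters and 2 of S with E2F letters, read 5′ to 3′ on the gene's strand with matches in capitals. They lie at chr7:135716380-135716579 (minus strand, Mki67), chr11:99024190-99024389 (minus, Top2a), chr19:37376182-37376381 (plus, Kif11), chr8:75109309-75109508 (plus, Mcm5) and chr1:128359706-128359905 (minus, Mcm6).
Mki67: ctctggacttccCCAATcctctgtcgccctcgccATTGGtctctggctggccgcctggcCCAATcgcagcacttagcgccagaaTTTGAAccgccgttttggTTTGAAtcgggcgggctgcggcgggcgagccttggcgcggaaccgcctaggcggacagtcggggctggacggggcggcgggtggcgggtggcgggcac
Top2a: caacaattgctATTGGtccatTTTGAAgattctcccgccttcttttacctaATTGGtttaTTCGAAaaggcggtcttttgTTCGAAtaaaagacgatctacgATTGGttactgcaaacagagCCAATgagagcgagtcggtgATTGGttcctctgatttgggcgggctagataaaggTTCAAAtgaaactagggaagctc
Kif11: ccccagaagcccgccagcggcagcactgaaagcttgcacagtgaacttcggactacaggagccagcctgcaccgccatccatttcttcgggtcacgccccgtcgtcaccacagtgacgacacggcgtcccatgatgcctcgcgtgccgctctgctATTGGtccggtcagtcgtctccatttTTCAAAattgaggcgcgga
Mcm5: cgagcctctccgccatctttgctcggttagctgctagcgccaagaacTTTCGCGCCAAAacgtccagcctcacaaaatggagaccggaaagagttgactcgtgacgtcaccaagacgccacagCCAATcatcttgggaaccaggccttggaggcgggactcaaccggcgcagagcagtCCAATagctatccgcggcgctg
Mcm6: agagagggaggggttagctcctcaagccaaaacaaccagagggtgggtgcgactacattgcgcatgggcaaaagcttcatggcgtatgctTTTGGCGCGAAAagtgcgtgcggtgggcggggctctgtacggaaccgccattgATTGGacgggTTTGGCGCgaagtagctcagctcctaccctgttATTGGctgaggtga
Top2a shows 4 CHR matches and several CCAAT boxes in either direction, Kif11 1 of each close to the start, and Mcm5 and Mcm6 a pair of E2F matches that overlap each other on opposite strands, with one more E2F match nearer the start in Mcm6. Mcm5 and Mcm6 also show CCAAT boxes, which were found for 8 of 12 S members, whereas E2F letters were found for only 5 of 12.

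Beta cell genes in the G2/M cells were compared with the beta-like cells that were neither G2/M nor S, within each library. To leave out the cells led by other hormones, both sides were limited to insulin-led cells, 7, 10, 5 and 43 of them in G2/M. G6pc2, a glucose-6-phosphatase of beta cells, was lower in G2/M cells in all 4 libraries, with log2 ratios of -1.35 (-1.83 to -0.92) in WT SCD, -1.66 (-2.14 to -1.22) for HH SCD, then -1.35 (-1.85 to -0.89) for WT HFD and -1.19 (-1.36 to -1.02) for HH HFD. Each of these intervals was below 0.

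The glucose transporter Slc2a2 (-0.77, -0.29, -1.08 and -0.98) and the incretin receptor Glp1r (-1.05, -1.15, -0.25 and -1.0) were below 0 in each library too, with intervals that include 0 for Slc2a2 in HH SCD and for Glp1r in WT HFD. Ins1 ratios were -0.10, -0.17, -0.21 and -0.19 and Ins2 ratios -0.19, -0.16, -0.19 and -0.19, small against G6pc2. The transcription factor gene Pdx1 was above 0 in all 4 (0.34, 0.48, 1.13 and 0.62), with intervals above 0 in the HFD libraries. The maturity genes Mafa (-0.50, -0.02, 0.30 and -0.33) and Ucn3 (-0.53, -1.02, 0.15 and -0.25) had no common sign, and neither had Iapp (-0.16, -0.19, -0.05 and 0.12) or Trpm5 (0.30, -0.22, -1.74 and -0.56).

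Of the genes that are usually low in mature beta cells, Aldh1a3 had 39 UMIs in the G2/M cells of HH HFD, 3.06 times the level of the other cells (log2 1.61, 1.11 to 2.08), but 0, 2 and 0 UMIs in the other libraries. Serpina7 had 62 UMIs in the HH HFD cells (log2 0.93, 0.54 to 1.29) and none in those of the other libraries. Gc, a plasma protein gene, was at -0.00, 0.82, 0.85 and 0.61. Ttr was at -0.79, -0.38, -0.59 and -0.40. It was not a low gene here, with 1292, 1340, 1343 and 2742 CPM over all beta-like cells called neither. Nkx6-1, a beta cell transcription factor gene, had ratios of -0.79, -0.35, -0.12 and -0.03. In HH HFD the comparison side contains cluster 5, in which no G2/M cell lay.

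The other endocrine classes held almost no G2/M cells, but some G2/M cells led by their hormones were counted as beta-like. Among kept cells of any cluster, 0, 3, 0 and 0 of the 393, 448, 274 and 464 cells led by Gcg were in G2/M. For Sst these were 2, 0, 0 and 1 of 325, 332, 155 and 281. For Ppy and Pyy they were 0, 1, 1 and 4 of 129, 172, 83 and 225, or 1.78% in HH HFD beside 1.62% for insulin. Of alpha-like cells 1 of 1674 was in G2/M, of delta-like cells 2 of 1139 and of PP-like cells 1 of 475, at median depths of 11350, 9512 and 16518 UMIs before thinning. The summed G2/M level of alpha-like cells was 10.8, 11.4, 9.79 and 11.6 CPM, near the 7.12 to 10.9 CPM of beta-like cells called neither, and gave no order of the groups. Different clusters held the alpha-like cells too, those of SCD mostly cluster 6 and those of HFD mostly cluster 12, while delta-like and PP-like cells were 1 cluster each. Delta-like cells had 57.9 CPM in WT SCD against 11.0 to 16.9 in the other libraries, of which 1 cell held 66.5% of the UMIs. In contrast, 24 alpha-like and 47 delta-like cells were called S, and a thinned S member was found in 21.1% of alpha-like and 25.9% of delta-like cells against 11.5% of beta-like cells, a further reason not to read S calls alone.

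Endothelial-like cells had a higher G2/M share in HH than in WT in HFD. The 4 libraries held 1 of 127, 0 of 89, 2 of 146 and 18 of 192 cells in G2/M. In percent these were 0.787, 0, 1.37 and 9.38. Beside the count of 0, a floor of 3 cells of 89 is 3.37%, which is not a Clopper-Pearson limit. The HFD difference was 8.01 points (2.90 to 13.2), and with the looser filter 4.43 points (-0.11 to 8.28), an interval that includes 0. Cells with either call were 17.1% in WT HFD and 16.7% in HH HFD (-0.46 points, -9.13 to 7.86), and 14 of the 18 G2/M cells of HH HFD also held 2 or more S members. Their summed G2/M level was 157, 63.0, 369 and 851 CPM, but in WT HFD 1 cell held 89.3% of it. Mki67 had 3, 1, 14 and 99 UMIs and Top2a 13, 1, 19 and 92, while Pcna was lower in HFD, at 269, 206, 80.1 and 96.1 CPM.

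**Figure D5:**
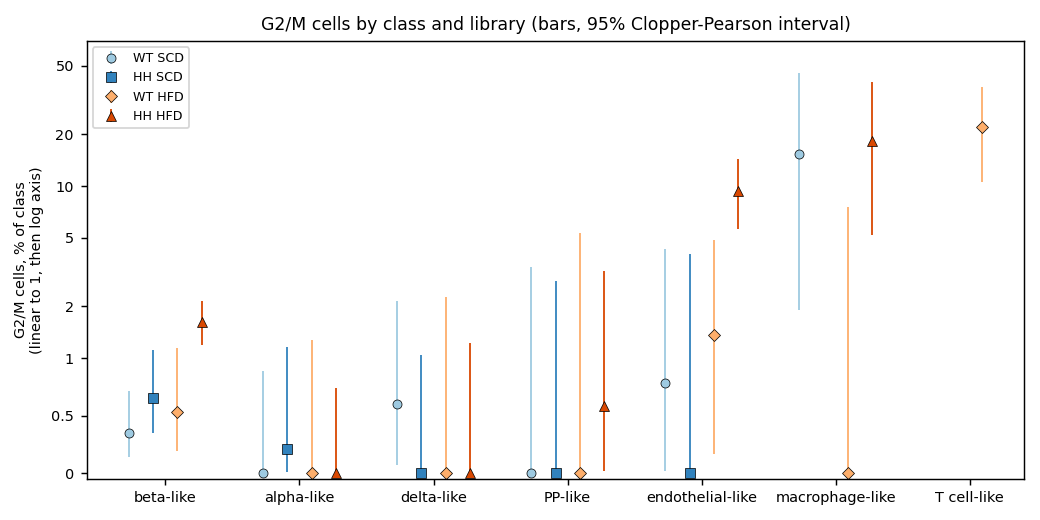
Share of cells in G2/M (points with 95% Clopper-Pearson intervals, percent, on an axis that is linear to 1 and then logarithmic) for 7 classes, in libraries with 10 or more cells of the class. HH HFD is highest among beta-like (1.62%) and endothelial-like cells (9.38%), and alpha-like cells stay near 0.

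Immune and other cells were few. Macrophage-like cells had 2 of 13, 1 of 6, 0 of 47 and 4 of 22 cells in G2/M. T cell-like cells were nearly all from WT HFD, where 9 of 41 were in G2/M, and stromal-like cells had 4 of 84 in HH HFD, where insulin was the leading hormone of 39 of the 84 and of 3 of the 4. In HFD the macrophage-like share was 18.2 points higher in HH (3.15 to 40.3), from 22 and 47 cells.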

How the data were processed

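Islets pooled from 2 to 3 mice per library were sequenced with 10x Genomics 3′ chemistry. The deposited matrices hold raw UMI counts per gene and barcode, made by the authors with Cell Ranger 6.0 on mm10 per the labels, and the limits of their cell filter (3000 to 50000 UMIs, 2000 to 5000 genes, under 10% mitochondrial UMIs) were all required here. The kept cells may differ from the authors', who first removed ambient RNA with SoupX, which was not done here, and whose wording leaves the combination of limits unclear. Scrublet scores (scanpy 1.11.5) were used to remove the highest-scoring cells, 0.8% per 1000 cells, since its automatic threshold was uneven between libraries. No cell annotation was used. Cells of all libraries were clustered together (3000 variable genes without the cell cycle lists, 30 components, 20 neighbours, Leiden resolution 1), and a cluster was named "X-like" for the type with the largest share of its markers present (3 or more, no tie), unless a different type had more markers among its 10 leading genes. The set of clusters against which leading genes were found was chosen after the data were seen, as were the insulin-led cells (insulin the highest hormone and at least 5% of UMIs).

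Cells were thinned to 3000 UMIs for calls. Levels are UMIs summed over the cells of a class per 1000000 UMIs of that class, not divided by gene length. Genes with 20 or more UMIs over the 4 libraries entered ratios, and called means 2-fold or more. With 1 library per group no test was run. Named genes are all 41 members, the 15 other genes highest in cycling over remaining beta-like cells with 50 or more UMIs in them, the 5 most abundant genes of each other cell cycle list, and the beta identity list, for which the planned comparison of cycling cells was limited to G2/M cells, as S calls are unreliable. Not every gene this rule names is reported here. Members and lists were chosen with earlier results of these data known. The ratio interval and the G2/M call were tested on simulated counts, while the thinning and the intervals of shares were not. Alternatives were other filters, doublets kept, another clustering, other thinning and call rules, and cells free of other hormones. Barcodes outside the filter were used only there. Promoter windows came from RefSeq, and 6 members had none.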

Additional observations from a re-analysis of the deposited data

Results flagged for a closer look

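Barcodes outside the cell filter also held G2/M members. Among insulin-led barcodes with 3000 or more UMIs and under 20% mitochondrial UMIs that the filter left out, 13 of 649 in WT SCD (2.0%), 10 of 454 in HH SCD (2.20%), 14 of 521 in WT HFD (2.69%) and 32 of 555 in HH HFD (5.77%) were in G2/M, above the share among the kept insulin-led cells in each library. Insulin-led barcodes with over 5000 genes, in the looser filter, numbered 128, 87, 179 and 123, of which 11, 9, 10 and 30 were in G2/M. Such barcodes can hold more than 1 cell, and this was not tested.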

How the results depend on the processing

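The HH/WT difference in G2/M share in HFD (1.09 points) kept its direction under all 15 alternatives run, and its interval stayed above 0 except among cells free of other hormones and of immune or endothelial markers (1.33 points, -0.36 to 2.42). In SCD it lay between -0.05 and 0.72 points, was below 0 with the looser filter alone, and had an interval above 0 when thinned less deeply, unthinned or with another draw. Without cluster 5, mostly of HH HFD cells, the HFD difference was 2.71 points for G2/M and 3.34 points for cycling cells, the G2/M, S and median log2 ratios 3.20, 0.77 and 2.83, as fewer HH HFD cells without G2/M calls remain. In SCD the G2/M ratio (main 0.40) reversed to -0.29 without the upper limits, -0.48 with the looser filter and -0.44 among insulin-led cells of the looser filter, and was 0.28 with cell cycle genes kept in the clustering, 1.61 in cells free of other markers, 0.056 in insulin-led cells, 0.57 without the top cell of each library and 0.60 with cells weighted equally. In HFD (main 2.12) these values were 0.58, 0.74 and 0.70, then 2.52 in cells free of other markers, 2.33 in insulin-led cells, 2.37 without the top cells and 1.77 with equal weights. For the S sum they were, in SCD, -0.18 in cells free of other markers and 0.046 without Pcna, and in HFD 0.092 without the upper limits, 0.11 and 0.13 with the looser filter (clusters and insulin-led), 0.49 in cells free of other markers, 0.21 with equal weights and 0.54 without Pcna. The median over the members, in the order no upper limits, looser filter and its insulin-led cells, was -0.12, -0.23 and -0.20 in SCD, where it was 1.02 in cells free of other markers, and 0.46, 0.59 and 0.53 in HFD. Members higher by 2-fold in the same order were 0, 0 and 0 of 41 in SCD (all genes 1.37%, 1.35% and 1.62%; 17 of 33 counted, beside 1.57%, in cells free of other markers) and 3, 8 and 9 in HFD (all genes 2.5%, 2.56% and 3.82%). Of 159 values under the alternatives, 117 stayed near the main value (inside its interval, for medians within the quartiles of the members, and for counts within 1.5 times). Apart from the settings that drop cells, the cause was not tested. Alternatives with insulin-led cells, without top cells, without cluster 5 or without Pcna were chosen after the data were seen. No paired analysis was possible because each group is 1 library. Depth limits the members with fewest UMIs, such as Aurkb, Bub1, Tk1 and Nusap1 in WT HFD.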

Other observations

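A cluster of 58 cells led by Igkc, Jchain and Mzb1, genes of antibody-secreting cells, expressed beta and B cell markers and was left unnamed. Its cells numbered 0, 7, 11 and 40 (WT SCD, HH SCD, WT HFD, HH HFD), of which 0, 0, 1 and 24 were in G2/M. In an unnamed cluster led by Apol7c, Lyz2 and H2-Aa, 3 of 9, 2 of 8, 4 of 49 and 1 of 6 cells were in G2/M.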
